A study of Homo sapiens with 6 samples.

Results

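The genes described here encode the alpha subunits of heterotrimeric G proteins: GNA11, GNAQ, GNA12, GNA13, GNAS, GNAI1, GNAI2, GNAI3, GNAZ and GNA15. All probe sets to which the platform annotation gives 1 of these 10 symbols and no other were taken, which gave 40 of the 49372 probe sets on the array. The genes were chosen by their 3 h and 0 h values, with the comparison of the 2 groups already known, and GNA11 was known to be among its largest differences. The values of the alpha subunits are therefore given as a description, without p-values. The cells were ARPE-19, a long-established human line derived from retinal pigment epithelium, and each RNA sample was read on 1 Affymetrix array. In the 3 h group (3 arrays), cells received 10 mU/ml glucose oxidase for 3 h, an enzyme that makes hydrogen peroxide from the glucose of the medium. The 0 h group (3 arrays) received no enzyme. By their protocol, both groups carried a green fluorescent protein plasmid, introduced 48 h before. The descriptions of the 3 h samples name a construct of that protein with alpha satellite instead, so treatment and construct cannot be told apart. The labels do not say that replicates came from separate cultures, so the spread between them may be technical only, and list no cells kept for 3 h without the enzyme.

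A heterotrimeric G protein consists of an alpha, a beta and a gamma subunit and passes the signal of a G protein-coupled receptor into the cell. An activated receptor makes the alpha subunit exchange GDP for GTP, which parts it from the beta and gamma subunits, and both parts then act on effectors until the alpha subunit hydrolyses its GTP. Alpha subunits fall into 4 classes: Gq/11 activates phospholipase C beta, G12/13 activates exchange factors of small GTPases, Gs stimulates adenylyl cyclase and Gi/o inhibits it. In pigment epithelium, receptors of these classes are known to take part in fluid transport, calcium signalling and phagocytosis of photoreceptor outer segments.

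At 3 h, the alpha subunit genes did not share a direction, also within a class. GNA11, GNA12, GNAI2 and GNAS were higher than at 0 h by every tested probe set, GNAI1 and GNAI3 were lower by every one, and the probe sets of GNAQ and GNA13 disagreed. In RNA of whole cultures, fewer cells of a type and less RNA per cell cannot be told apart. A probe set was tested if its mean log2 value over the 6 arrays reached 4.64, the 40th percentile with controls left out. Of the 40 probe sets 35 did so, and the 5 of GNAZ and GNA15 did not. Among the 35, 25 were higher and 10 lower at 3 h, with a median difference of 0.34 (log2, 3 h minus 0 h) beside 0.01 for all 29576 probe sets tested. Past an adjusted p of 0.05 in limma lay 27 of the 35, of which 20 were higher and 7 lower. The same fit passed 51.4% of all tested probe sets, 25.6% as higher and 25.8% as lower, and since the members were chosen with this contrast known, nothing is read from their share. The 7 lower calls depended on single arrays: 2 were left on omitting 0 h replicate 1 or 2, and 4 on omitting 0 h replicate 3 or 3 h replicate 1.

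**Figure D1:**
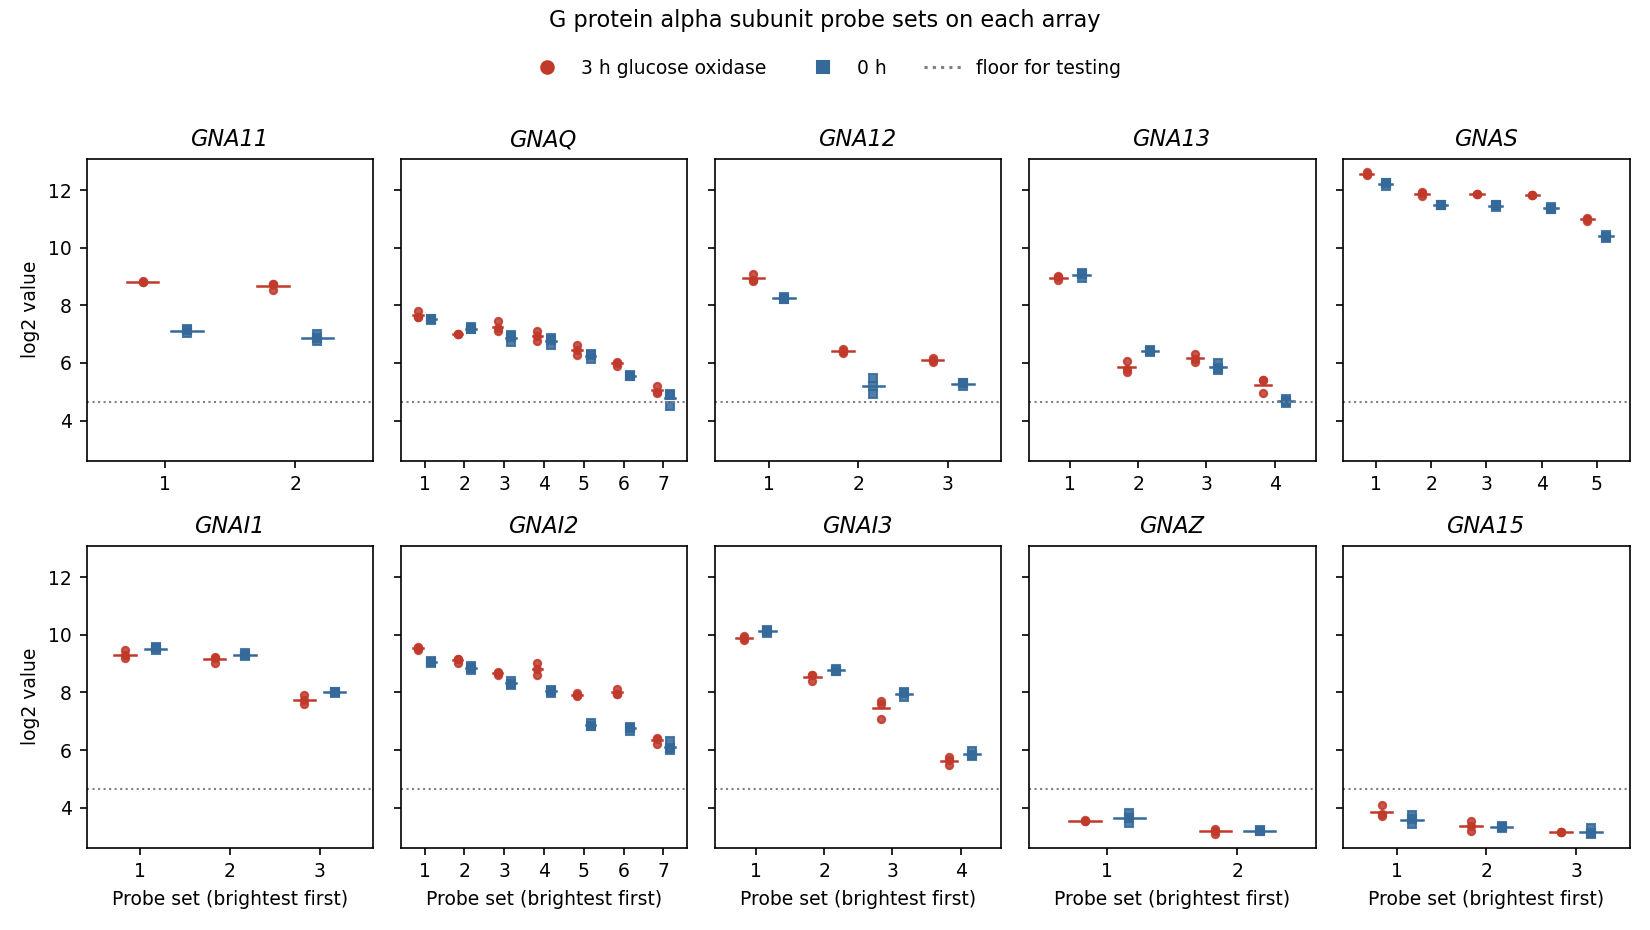
Log2 value (vertical axis) of each probe set of the 10 alpha subunit genes on each of the 6 arrays. Red circles are the 3 h arrays and blue squares the 0 h arrays, horizontal lines are the group means of 3 arrays, and the dotted line is the floor of 4.64. Both probe sets of GNA11 stand clear of their 0 h values, while those of GNAZ and GNA15 lie under the floor in both groups.

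The start regions of 4 genes are printed to show what sequence they carry: GNA11, GNA12, GNA13 and GNAI3. Of these, GNA11 and GNA12 were higher by every tested probe set and GNAI3 was lower by every one, while the probe sets of GNA13 disagreed. They come from the RefSeq promoter table for GRCh38.p14, which spans 250 bases before to 50 bases after a transcript start. Of the 10 genes 7 had at least 1 entry there. The entry at the outermost start of the gene was taken, and GNAI2 had none at that start. Capitals mark the GC box, GGGCGG on either strand.
GNA11, GRCh38.p14 chr19:3094112-3094411, plus strand: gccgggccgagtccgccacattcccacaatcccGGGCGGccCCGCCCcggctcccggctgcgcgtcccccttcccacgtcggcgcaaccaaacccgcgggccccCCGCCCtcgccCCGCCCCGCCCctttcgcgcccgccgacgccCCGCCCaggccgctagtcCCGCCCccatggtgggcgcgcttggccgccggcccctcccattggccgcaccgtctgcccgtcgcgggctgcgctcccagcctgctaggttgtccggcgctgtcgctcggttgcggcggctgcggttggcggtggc
GNA12, GRCh38.p14 chr7:2844259-2844558, minus strand: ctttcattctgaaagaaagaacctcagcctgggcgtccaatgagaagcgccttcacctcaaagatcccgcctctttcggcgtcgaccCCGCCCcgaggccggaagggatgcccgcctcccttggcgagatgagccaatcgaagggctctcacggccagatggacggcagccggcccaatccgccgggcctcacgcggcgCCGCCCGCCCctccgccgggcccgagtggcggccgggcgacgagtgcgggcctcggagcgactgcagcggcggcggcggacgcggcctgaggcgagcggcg
GNA13, GRCh38.p14 chr17:65056691-65056990, minus strand: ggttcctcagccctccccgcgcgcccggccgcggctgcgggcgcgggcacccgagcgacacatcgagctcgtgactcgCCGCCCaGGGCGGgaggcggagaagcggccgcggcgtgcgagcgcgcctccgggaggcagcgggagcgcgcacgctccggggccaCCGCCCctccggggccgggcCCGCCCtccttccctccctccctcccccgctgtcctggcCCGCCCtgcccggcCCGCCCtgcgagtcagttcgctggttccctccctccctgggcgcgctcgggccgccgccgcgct
GNAI3, GRCh38.p14 chr1:109548365-109548664, plus strand: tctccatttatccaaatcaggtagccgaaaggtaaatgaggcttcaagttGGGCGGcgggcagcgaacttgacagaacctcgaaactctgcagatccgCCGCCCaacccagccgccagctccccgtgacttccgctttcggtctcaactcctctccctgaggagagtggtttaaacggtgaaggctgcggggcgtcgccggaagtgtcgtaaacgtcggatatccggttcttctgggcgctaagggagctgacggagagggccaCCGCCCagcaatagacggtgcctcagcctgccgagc

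The GNA11 region held 7 GC boxes, GNA12 held 3, GNA13 held 6 and GNAI3 held 3, while 45.0% of all 35116 promoters in the table held at least 1 on either strand. Adjacent GC boxes can overlap, as in the GNA11 and GNA12 regions. The GC content was 79.3% for GNA11, 71.7% for GNA12, 81.3% for GNA13 and 59.7% for GNAI3, beside a median of 58.7% for all promoters. The region of GNAI1, one of the lower genes, had 79.7% and 3 GC boxes, and that of GNAS, one of the higher genes, 67.3% and 1. A relation of GC content to direction was not tested. The CCAAT box, searched as CCAAT on both strands, was found 1 time in GNA11, 3 times in GNA12 and 0 times in GNA13 and GNAI3, and was present in 34.6% of all promoters. The palindromic cAMP response element TGACGTCA and the AP-1 motif TGANTCA occurred 0 times in all 4 regions, and in 1.85% and 7.71% of all promoters. Which start ARPE-19 cells use was not tested.

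GNA11 encodes one of the alpha subunits that activate phospholipase C beta. Its brighter probe set, 11720664_at, read 8.85, 8.80 and 8.82 on the 3 h arrays, against 7.05, 7.16 and 7.16 on the 0 h arrays. Its second, 11720663_a_at, read 8.74, 8.52 and 8.73 at 3 h, against 6.87, 6.99 and 6.78 at 0 h. All 3 h arrays were above all 0 h arrays by both probe sets. Their differences of 1.70 and 1.79 correspond to 3.24-fold and 3.45-fold higher values, so the probe sets gave nearly the same size. Over all alternatives of the processing they ran from 1.66 to 1.72 and from 1.73 to 1.86. Both lay beyond the 95th percentile of all tested probe sets, which was 0.66, at percentiles 99.93 and 99.96. Neither carries the _s or _x suffix by which Affymetrix marks probe sets that can read other transcripts.

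GNAQ, whose protein is the close relative of the GNA11 product and acts on the same phospholipases, had 7 probe sets with differences from -0.20 to 0.42. The brightest, 11759095_at, read 7.61, 7.58 and 7.81 at 3 h, against 7.53, 7.49 and 7.53 at 0 h. The groups did not overlap there, and the difference of 0.15 was not past the threshold. The largest difference was that of 11749927_a_at, which read 5.89, 6.01 and 6.05 at 3 h, against 5.56, 5.56 and 5.57 at 0 h. Only 11759093_s_at was lower, with 7.0004, 6.9942 and 6.9926 at 3 h, against 7.23, 7.17 and 7.18 at 0 h. The probe sets of GNAQ thus differed in sign, and the lower one is of the _s type. Its call ended on omitting 0 h replicate 1 (-0.18). Of the 7, 2 passed the threshold as higher and 1 as lower, and 4 did not pass. The groups did not overlap in 5 of 7, beside 60.6% of all tested probe sets, and nothing is read from that share. Averaged over all 7, the difference was 0.21, or 1.15-fold higher at 3 h. GNA15, the third Gq-class gene and known from blood cells, is the protein-coding neighbour of GNA11 on chromosome 19. Its 3 probe sets read between 3.08 and 4.09 on all arrays, under the floor, and each overlapped between the groups.

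GNA12 and GNA13 encode the subunits that link receptors to the actin cytoskeleton. GNA12 was higher by all 3 probe sets. The brightest, 11727848_a_at, read 8.86, 9.10 and 8.87 at 3 h, against 8.28, 8.22 and 8.22 at 0 h, a difference of 0.70 or 1.63-fold. The dimmer 11751417_a_at read 6.48, 6.43 and 6.34 at 3 h, against 5.47, 4.91 and 5.18 at 0 h. Its difference of 1.23, or 2.34-fold, was the largest of the gene, and its 0 h arrays were spread more widely (SD 0.28, n = 3) than its 3 h arrays (SD 0.07, n = 3). The third, 11727847_a_at, differed by 0.82. In none of the 3 did the groups overlap.

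GNA13 gave opposite answers by probe set. The brightest, 11717681_at, read 9.03, 8.87 and 8.97 at 3 h, against 9.09, 9.13 and 8.96 at 0 h, and the groups overlapped. Next in brightness, 11755222_a_at read 5.81, 5.69 and 6.06 at 3 h, against 6.46, 6.42 and 6.39 at 0 h, so that all 3 h arrays were lower (difference -0.57, or 1.48-fold lower). The dimmest, 11717682_a_at, read 4.96, 5.40 and 5.40 at 3 h, against 4.596, 4.70 and 4.76 at 0 h, so that all were higher (difference 0.57, or 1.48-fold higher). These 2 probe sets were thus the same distance from 0 in opposite directions. The fourth, 11748689_a_at, differed by 0.29, and its call ended without replicate 1 or 3 of either group. Averaged over all 4 the difference was 0.04. Whether they read different transcript forms was not tested.

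**Figure D2:**
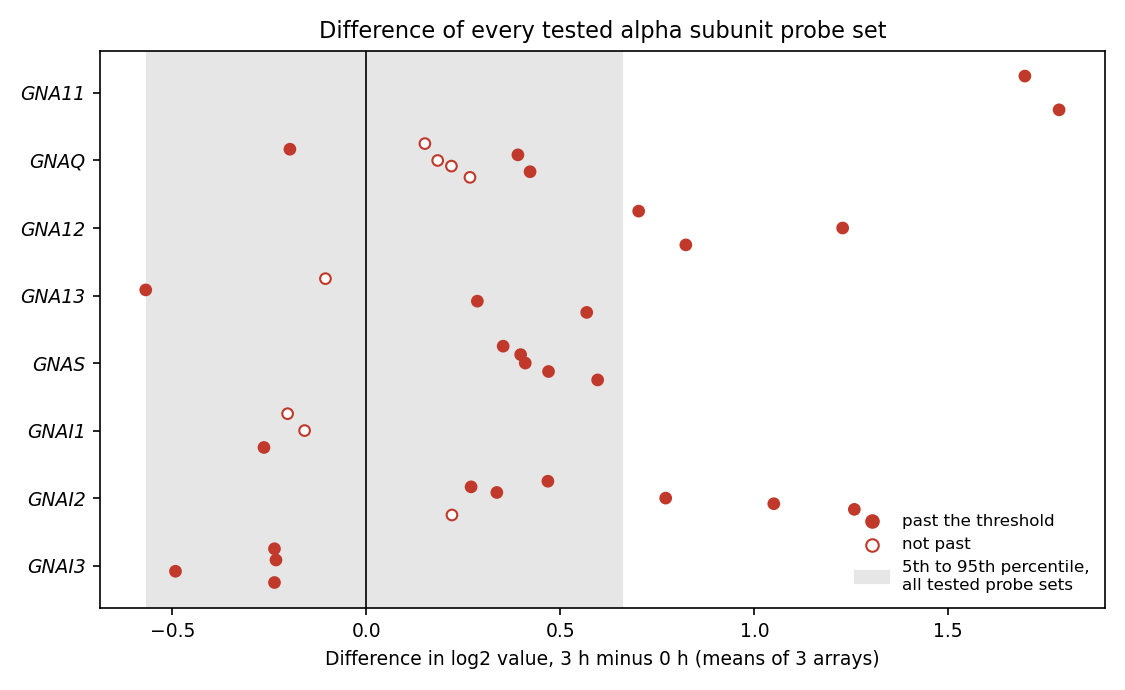
Difference in log2 value, 3 h minus 0 h (horizontal axis), of each of the 35 tested alpha subunit probe sets, 1 row per gene. Filled points passed an adjusted p of 0.05 in limma, open points did not, and the grey band spans the 5th to 95th percentile (-0.56 to 0.66) of all 29576 tested probe sets. GNA11 and GNA12 lie right of the band throughout and GNAI2 does so by 3 of 7 probe sets.

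GNAS encodes the stimulatory alpha subunit Gs from a complex, imprinted locus with several alternative first exons. Its 5 probe sets were all higher at 3 h, with differences of 0.35 to 0.60. The brightest, 11717596_s_at, read 12.56, 12.53 and 12.61 at 3 h, against 12.25, 12.26 and 12.14 at 0 h. The largest difference, 0.60 or 1.51-fold, was that of 11746698_a_at, which read 11.0246, 10.9301 and 11.0035 at 3 h, against 10.38, 10.44 and 10.35 at 0 h. This is also the only one of the 5 without such a suffix. In none of the 5 did the groups overlap.

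The inhibitory alpha subunits split. GNAI2 was higher by all 7 probe sets, 6 of them without overlap, and the size ran from 0.22 to 1.26. The brightest, 11757732_x_at, read 9.48, 9.53 and 9.57 at 3 h, against 9.07, 9.10 and 9.01 at 0 h, a 1.38-fold difference. The largest was that of 11753213_x_at, with 7.95, 7.95 and 8.13 at 3 h, against 6.67, 6.81 and 6.77 at 0 h, a 2.39-fold difference. The size of the difference in GNAI2 therefore depends on the probe set by more than 1 log2 unit, and its direction does not. Without the _s and _x types, 11746874_a_at (0.77) and 11760227_at (0.22, groups overlapping) remained.

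GNAI1 and GNAI3, which also encode inhibitory subunits, were lower by all 3 and all 4 probe sets without overlap. The brightest GNAI3 probe set, 11727775_s_at, read 9.80, 9.95 and 9.89 at 3 h, against 10.12, 10.16 and 10.07 at 0 h, or 1.18-fold lower. The largest GNAI3 difference, -0.49, was that of 11727776_at, which read 7.09, 7.60 and 7.69 at 3 h, against 8.02, 7.98 and 7.85 at 0 h. Replicate 1 at 3 h stood lowest there and carried much of the spread (SD 0.32 at 3 h and 0.09 at 0 h, n = 3 each), and without it the difference was -0.31. The call of this probe set ended on omitting 0 h replicate 1 (-0.46) or 2 (-0.48). Without 0 h replicate 2, only 2 lower calls were left among all alpha subunit probe sets, and GNAQ 11759093_s_at was among them. Most of the GNAI3 calls thus ended there as well. For GNAI1, 11722803_s_at read 9.28, 9.20 and 9.45 at 3 h, against 9.46, 9.52 and 9.56 at 0 h, so that the highest 3 h array came within a narrow margin of the lowest 0 h array. The 3 differences of GNAI1 were -0.26 to -0.16. Only 1 of them, that of 11749798_a_at, passed the threshold, and its call ended without any single 0 h array and without replicate 1 or 3 at 3 h. GNAZ, an inhibitory subunit known from platelets and neurons, read between 3.09 and 3.83 on all arrays by its 2 probe sets, under the floor, with overlapping groups.

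Across the 35 probe sets, 22 were higher on every 3 h array than on any 0 h array and 9 were lower on every one, against 30.1% and 30.5% of all tested probe sets, 60.6% in either direction. Replicates varied about as much as elsewhere on the array. The median SD of the 35 was 0.10 at 3 h and 0.06 at 0 h, beside 0.09 and 0.07 for all tested probe sets. Control probe sets differed between the groups as well, and their part in the values given here was not tested. All 24 probe sets of the poly-A spikes were lower on every 3 h array (median difference -0.60), as were 17 of 18 of the hybridization spikes (-0.31). The 5′ minus 3′ log2 difference of actin was -1.20 ± 0.06 at 3 h, against -2.06 ± 0.07 at 0 h, and that of GAPDH -0.13 ± 0.04 at 3 h, against -0.39 ± 0.05 at 0 h (SD, n = 3 each). Of 12 pigment epithelium markers 9 were above the floor, among them the transcription factor genes MITF and OTX2, while RPE65, RLBP1 and LRAT of the visual cycle were under it in both groups. Of the 9, KRT8, KRT18, MITF and OTX2 rose by 0.40, 0.34, 0.33 and 0.19, SERPINF1 fell by 0.40, and their part in the values of the alpha subunits was not tested. The call of MITF ended for the average of its probe sets (0.10) and that of OTX2 on omitting 0 h replicate 1 (0.17). Of 7 markers of other cell types the leukocyte gene PTPRC, at 2.54 in the 3 h group and 2.44 in the 0 h group, was the only one under the floor. The other 6 had group means of 4.997 to 6.33, from CD3E and PECAM1 to the neuronal gene SYT1, and 2 of them, PDE6B and SYT1, fell by 0.36 and 0.22 by their brightest probe sets. Neither passed when averaged over its probe sets (-0.07 and 0.06), PDE6B stood at 0.11 without _s and _x types, and the call of SYT1 ended on omitting any 0 h array or 3 h replicate 2 (-0.22 to -0.17).

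The genes whose profile was nearest to that of GNA11 were IRF2BPL, CBX6, CMIP, ZMIZ1 and NF2. Likeness was measured over the 6 arrays as the root mean square difference between profiles centred on their means, among 12221 genes each represented by its brightest probe set. It ranged from 0.08 for IRF2BPL to 0.12 for NF2 on the log2 scale. The differences of these 5 genes were 1.48 to 1.68, beside 1.70 for GNA11. Likeness by this measure rests on the same 3 h and 0 h values by which the members were chosen. No other alpha subunit gene was among the 5. That follows from their smaller differences by brightest probe set, of which GNA12 had the largest at 0.70, and is not read as a result.

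The other genes of the pathway were read from the same fit, each by its brightest probe set. Of 87 tested genes in 10 lists (other alpha subunits, beta and gamma subunits, regulators, effectors and receptors) 18 rose, 23 fell and 46 did not pass, against 19.9% higher and 29.8% lower calls, 49.7% together, among all 12221 genes. Their median difference was 0.03, beside -0.04 for all genes. Without replicate 2 at 0 h 15 genes were called lower in place of 23. With each gene's probe sets averaged, 26 were called higher and 15 lower, so the larger share depends on the summary.

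**Figure D3:**
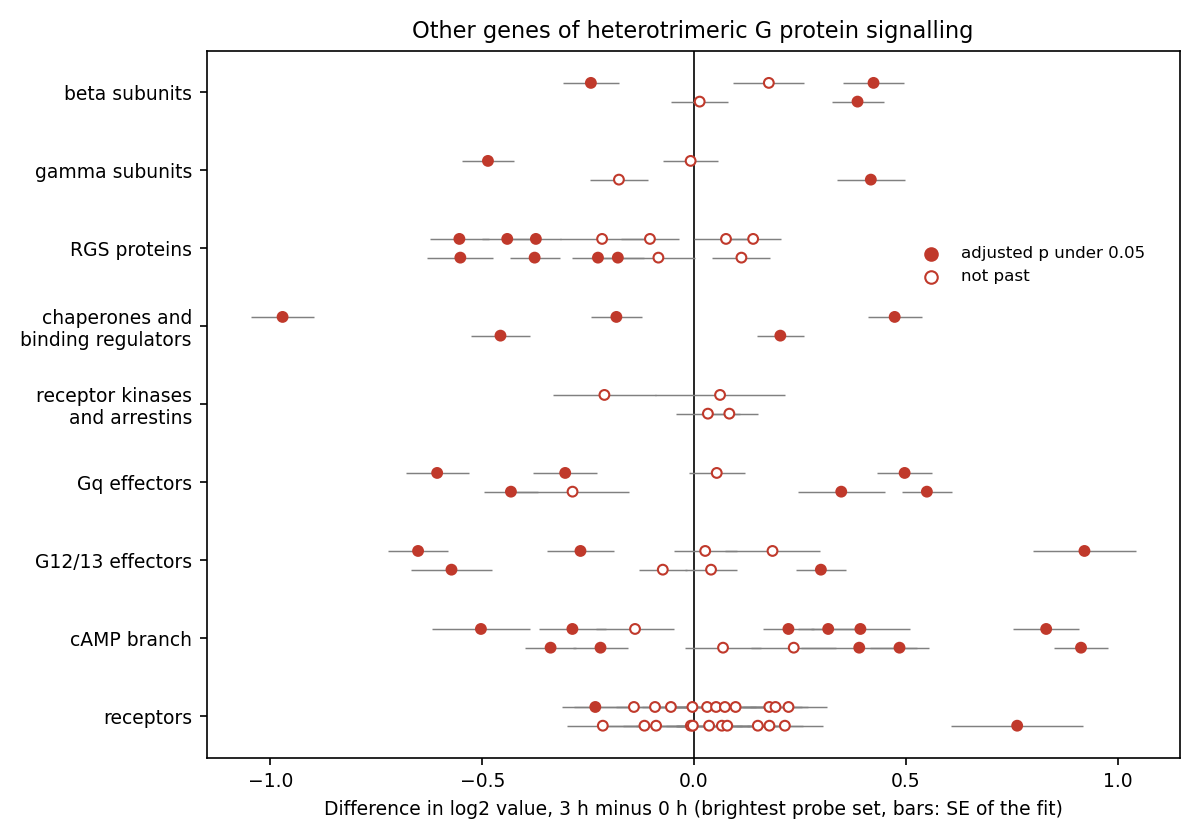
Difference in log2 value, 3 h minus 0 h (horizontal axis), of each tested gene in 9 lists of G protein signalling, by its brightest probe set. Filled points passed an adjusted p of 0.05 in limma, open points did not, and bars are the SE of the fit with 3 arrays per group. RGS genes past the threshold are all left of 0, and the other lists with 3 or more calls hold points on both sides.

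Beta and gamma subunits form the dimer that holds the inactive alpha subunit at the membrane. GNB1 and GNB2, the beta subunits found in most cells, rose by 0.42 (SE 0.07, adjusted p = 0.0016, limma) and 0.39 (SE 0.06, adjusted p = 0.0012, limma), higher on 3 of 3 arrays in both cases. GNB4 fell by 0.24, and this call ended on omitting 0 h replicate 2 (-0.19) and for the average of its probe sets (-0.14). GNB5 and GNB3 stood at 0.18 and 0.01 and did not pass, although GNB5 passed at 0.26 on omitting 3 h replicate 1. Among 4 tested gamma subunits, GNG11 fell by 0.49 and GNG4 rose by 0.42. The rise of GNG4 rests on its only tested probe set, which is of the _x type. That probe set had a mean of 4.90 at 3 h and of 4.49, under the floor, at 0 h. It was tested because its mean over all arrays reached the floor. Averaged over all its probe sets, GNG4 stood at 0.16, with a level under the floor, and was not tested. GNG5 stood at -0.18 (adjusted p = 0.0571, limma), and GNG12 at -0.01 by its brightest probe set and 0.56 by another. Of 6 other alpha subunit genes GNAO1 alone was above the floor, and its difference of 0.14 did not pass (limma, 0 of 1 gene also at an unadjusted p under 0.05), although it passed at 0.24 on omitting 0 h replicate 3.

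RGS proteins speed up GTP hydrolysis by alpha subunits and so end their signal. Of 13 tested 7 fell, 0 rose and 6 did not pass in limma, with a median difference of -0.22; at an unadjusted p under 0.05 also 7 were lower and 0 higher. RGS5 fell by 0.55, as did RGS17, and RGS10 fell by 0.44. RGS5 had 1 tested probe set, of the _s type, and stood at -0.36 averaged over all its probe sets. RGS4 fell by 0.38 with its brightest probe set, and averaged over all its probe sets it stood at -0.09 and did not pass. With _s and _x types left out, 4 RGS genes were lower and 1 was higher. Of 5 chaperones and binding regulators all passed, 2 higher and 3 lower. CCDC88A, which encodes girdin, an activator of inhibitory alpha subunits, fell by 0.97 (SE 0.07, adjusted p = 5.3e-05, limma), and its 2 tested probe sets gave -0.99 and -0.97. GPSM2, which binds inhibitory alpha subunits in spindle orientation, fell by 0.46, while its relative GPSM1 rose by 0.47. RIC8A, a chaperone of Gq, G12/13 and Gi alpha subunits, rose by 0.20, and this call ended on omitting 0 h replicate 1 (0.19) or the _s and _x types (0.13). RIC8B, the chaperone of Gs, fell by 0.18 and was named after its value was seen. Its call ended on omitting any 0 h array or 3 h replicate 2 or 3 (-0.19 to -0.14), and with no filter on dim probe sets. With the replicate block, 2 of the chaperones and binding regulators were called lower in place of 3. Of the receptor kinases, which tag active receptors for arrestins, 0 of 4 passed in limma, also at an unadjusted p under 0.05: GRK5 stood at -0.21, GRK2 at 0.08, GRK3 at 0.06 and GRK6 at 0.03. On omitting 3 h replicate 2, 1 of them was called lower.

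Effectors moved in both directions in each branch. Of 8 tested Gq effectors 3 rose and 3 fell, and 0 were called lower when each gene's probe sets were averaged. The calcium channel gene ITPR3 rose by 0.55 and its relative ITPR1 fell by 0.61. ITPR1 had 1 tested probe set and stood at -0.30 averaged over all its probe sets. TRIO, an exchange factor activated by Gq, rose by 0.50 with probe sets from -0.14 to 1.01. PLCB4, a phospholipase C beta gene, fell by 0.43 by its brightest probe set, and stood at 0.42 once _s and _x types were left out. PLCB2 rose by 0.35 and KALRN fell by 0.30, both named after their values were seen. The call of PLCB2 ended on omitting 3 h replicate 1 (0.26) or 0 h replicate 1 (0.35) or 2 (0.28), and that of KALRN for the average of its probe sets (-0.14). Of 9 tested G12/13 effectors 2 rose and 3 fell. AKAP13, an exchange factor of small GTPases, rose by 0.92 with probe sets from 0.20 to 0.92 and an average of 0.32, RHOA rose by 0.30, while the kinase genes ROCK1 and ROCK2 fell by 0.65 and 0.57. Other probe sets of ROCK1 and ROCK2 reached 0.11 and -0.06. Probe sets of RHOA ran from 0.06 to 0.96, with an average of 0.62. ARHGEF12, another exchange factor, fell by 0.27 and was named after its value was seen. Its probe sets ran from -0.27 to 0.29, and its call ended for their average (-0.09) and on omitting 3 h replicate 2 (-0.19) or 0 h replicate 2 (-0.24) or 3 (-0.27).

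Of 14 tested genes of the cAMP branch 7 rose and 4 fell. On omitting 0 h replicate 1, 4 were called higher, and on omitting 0 h replicate 2, 2 were called lower. PRKACA, the main catalytic subunit of protein kinase A, rose to 10.8 in the 3 h group, against 9.91 in the 0 h group (difference 0.91, SE 0.06, adjusted p = 3.5e-05, limma). The adenylyl cyclase genes ADCY9 and ADCY6 rose by 0.83 and 0.48, and ADCY7 fell by 0.34, or -0.03 and not past averaged over its probe sets. PRKACA, ADCY9 and ADCY6 each had 1 tested probe set. Averaged over all their probe sets, they stood at 0.57, 0.46 and 0.30. CREB1, PRKACB and PRKAR1A, which fell by 0.50, 0.29 and 0.22, were named after their values were seen. Probe sets of CREB1 ran from -0.78 to 0.13 and those of PRKAR1A from -0.22 to 0.72. The average for PRKAR1A was 0.28 and past the threshold as higher, opposite to its brightest probe set, whose call also ended on omitting 3 h replicate 3 (-0.18) or 0 h replicate 2 (-0.21) or 3 (-0.22). The call of PRKACB ended on omitting 0 h replicate 1 (-0.27) or 2 (-0.25). Of 24 tested receptors 1 rose and 1 fell, while 6 were called higher when each gene's probe sets were averaged. F2R, the thrombin receptor PAR1, rose by 0.76 (SE 0.16, adjusted p = 0.0041, limma), and P2RY6, a receptor for UDP, fell by 0.23. The call of P2RY6 ended on omitting any of 3 h replicates 1 and 3 and 0 h replicates 2 and 3 (-0.22 to -0.19). HRH1 stood at -0.22 and PTGER4 at 0.22, and neither passed.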

How the data were processed

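Per array, the authors deposited log2 values of 49372 probe sets; the scale was read from the values (medians 5.30 to 5.34 on the 6 arrays). MAS5 and RMA are named, per the submitters' processing notes, with no role or order; the sources used here give no further step. With array medians this close, a change in total RNA cannot be seen. Groups were taken from the sample titles. Probe sets were named where the platform annotation gives 1 gene symbol (44988), and the 79 control probe sets were left out.

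With limma 3.58.1 (lmFit, eBayes; R 4.3.3) a linear model was fitted to 29576 probe sets at or above the 40th percentile (4.64), 3 h minus 0 h, with Benjamini-Hochberg adjustment over all of them and a threshold of 0.05. It was also tested on simulated data. Figures were drawn with matplotlib 3.10.9. "Rose" and "fell" are used of pathway genes past that threshold only. Precision is limited by the number of arrays.

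The members, pathway lists and tests were chosen with earlier results of these data known. Named were all members, in each pathway list up to 4 genes with the smallest p, every call among other subunits, and the 5 genes nearest GNA11. GNB3 and the genes said to be named after their values were seen lie outside this rule. Same-numbered arrays did not deviate together (correlations -0.19 to -0.01, beside -0.17 to 0.20 for differently numbered arrays), so the main fit did not pair them. With 3 arrays per group this cannot show whether same-numbered samples shared a culture or a day. Alternatives covered quantile normalization, median centring, filters, probe set types, moderation, array weights, a replicate block, omission of each array, gene summaries and a 0.01 threshold.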

Additional observations from a re-analysis of the deposited data

How the results depend on the processing

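No alpha subunit probe set changed sign in any of the 506 alternative values computed for the 35 tested. Many of these could not: filters, probe set types, moderation, the replicate block and the 0.01 threshold leave a difference unchanged. A sign could turn only with quantile normalization, median centring, array weights or omission of an array. Of the 506 values 453 kept their side of the threshold, 41 lost it and 12 gained it. With the _s and _x probe set types left out, 4927 probe sets were higher and 4667 lower in place of 7569 and 7624, and 11 alpha subunit probe sets were higher and 4 lower in place of 20 and 7; fewer probe sets are tested there. With no filter on dim probe sets 4 alpha subunit probe sets were lower, and at a threshold of 0.01 only 1. Leaving out 1 array gave 2 to 7 of them lower and 19 to 21 higher. Among pathway genes 14 were lower at a threshold of 0.01 and 15 when a gene's probe sets were averaged, in place of 23, and 15 to 23 on leaving out 1 array. When averaged, 26 pathway genes were higher, in place of 18, so higher calls then outnumbered lower ones. They also did so without the _s and _x types, with 19 higher and 16 lower. With median centring 6615 probe sets were higher and 8690 lower. With the replicate block 6892 probe sets were higher and 6970 lower, 19 and 5 of them for alpha subunits, and 16 pathway genes were higher and 22 lower. Whether same-numbered samples share a source is not known. Directions turned for GNA13 averaged over its probe sets (0.045), for GNG12 with _s and _x types left out (0.56), averaged (0.16) and without replicate 2 of either group (0.040 for 3 h and 0.00034 for 0 h; -0.049 to 0.040 over all omissions), for PLCB4 with _s and _x types left out (0.42), for P2RY6, PRKAR1A and SYT1 averaged (0.021, 0.28 and 0.062), for PDE6B with _s and _x types left out (0.11), for GNB3 with quantile normalization (-0.025), median centring (-0.024) and on omitting 3 h replicate 3 or 0 h replicate 1 (-0.026 to 0.064 over all omissions), for GRK6 with median centring (-0.00451) and without replicate 2 at 0 h (-0.033 to 0.072 over all omissions), and for GRK3 on omitting 3 h replicate 2 (-0.06) or 0 h replicate 1 (-0.068 to 0.21 over all omissions). Of these, PLCB4, P2RY6, PRKAR1A, SYT1 and PDE6B had passed the threshold before. The averages of GRK5 (0.049) and GRK3 (-0.10) also had the other sign; they lay under the floor in level and were not tested. The cause was not tested, except that the average includes dim probe sets by construction.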
